A study of Mus musculus with 20 samples.

Results

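The Cyp2a genes of the mouse encode cytochrome P450 enzymes of the liver endoplasmic reticulum that hydroxylate coumarin, nicotine, bilirubin and steroids. The 4 protein-coding Cyp2a genes Cyp2a4, Cyp2a5, Cyp2a12 and Cyp2a22 are described here, out of 49315 genes in the table. They were taken by name, as a family chosen by its measured TPM difference between the treatment groups. Their levels and ratios in the 2 groups are therefore a description, with no test. Liver RNA came from 20 mice that had become obese and developed steatohepatitis on the AMLN diet, which all of them received throughout. The treated group was 10 mice on oral S217879 (30 mg/kg, once a day), and the other 10 were given its vehicle, hydroxyethylcellulose (HEC, 1%), for the same 8 weeks. The series title describes the treatment as breaking up the pairing of NRF2, a transcription factor, with KEAP1, which represses it. The labels give no strain, sex or age, and each library has an animal number of its own.

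Cyp2a5 is the main coumarin hydroxylase of mouse liver and the counterpart of human CYP2A6. In mouse liver it is known to respond to NRF2, to the nuclear receptor CAR and to hepatitis, and in healthy liver its protein is found mainly around the central vein. Cyp2a4 is a close copy of it that hydroxylates testosterone and is known to be higher in female than in male mice. Cyp2a12 is a liver steroid hydroxylase, and Cyp2a22 is its close copy.

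The members lie in a cluster of Cyp2 genes on chromosome 7 and form 2 pairs by sequence. The 250 bases before the RefSeq start of each gene (GRCm38.p6) are shown because Cyp2a4 and Cyp2a5 differ there at so few bases. Cyp2a12 and Cyp2a22 differ at more bases and are shown beside them. Capitals mark the bases that are not identical between the 2 genes of a pair, unaligned bases included. The Cyp2a4 window is chr7:26306942-26307191 on the plus strand, and the Cyp2a5 window is chr7:26835089-26835338 on the plus strand.
Cyp2a4: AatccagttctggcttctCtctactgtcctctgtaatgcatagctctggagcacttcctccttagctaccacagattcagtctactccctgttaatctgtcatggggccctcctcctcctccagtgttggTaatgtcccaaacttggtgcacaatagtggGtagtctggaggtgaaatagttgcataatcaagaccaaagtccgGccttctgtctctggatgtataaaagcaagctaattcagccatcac
Cyp2a5: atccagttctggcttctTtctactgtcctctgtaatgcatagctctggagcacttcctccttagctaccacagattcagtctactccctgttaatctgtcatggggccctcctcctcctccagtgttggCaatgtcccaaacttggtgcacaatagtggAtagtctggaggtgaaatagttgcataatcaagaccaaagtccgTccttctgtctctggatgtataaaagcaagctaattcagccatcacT
The Cyp2a12 window is chr7:27028840-27029089 on the plus strand, and the Cyp2a22 window is chr7:26939387-26939636 on the minus strand.
Cyp2a12: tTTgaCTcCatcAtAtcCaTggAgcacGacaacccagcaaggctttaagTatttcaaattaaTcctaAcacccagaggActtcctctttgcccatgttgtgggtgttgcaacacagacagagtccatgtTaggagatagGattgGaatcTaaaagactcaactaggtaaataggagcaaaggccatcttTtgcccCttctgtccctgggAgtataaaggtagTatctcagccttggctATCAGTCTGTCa
Cyp2a22: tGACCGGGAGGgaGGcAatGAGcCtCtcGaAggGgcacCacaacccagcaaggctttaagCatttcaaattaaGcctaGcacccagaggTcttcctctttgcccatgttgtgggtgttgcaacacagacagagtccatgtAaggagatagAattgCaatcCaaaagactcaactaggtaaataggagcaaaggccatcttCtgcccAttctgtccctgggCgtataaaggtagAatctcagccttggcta

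Cyp2a4 and Cyp2a5 were 97.6% identical over these windows, with 4 substitutions and 2 gap bases. Cyp2a12 and Cyp2a22 were 82.8% identical, with 23 substitutions and 22 gap bases, whereas identity between the pairs lay between 48.1% and 51.1%. The coding sequences showed the same grouping. Cyp2a4 and Cyp2a5 differed at 23 of 1485 aligned bases (98.5% identical), Cyp2a12 and Cyp2a22 at 45 of 1479 (97.0% identical), and coding identity between the pairs lay between 74.9% and 76.2%. Each gene has 9 exons in the annotation used. Cyp2a4 and Cyp2a5 each encode 494 codons, and Cyp2a12 and Cyp2a22 each encode 492.

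Motifs were searched on both strands from 250 bases before to 50 bases after the start. TATAAA, the TATA box, was found once in each window, beginning at position -28 in Cyp2a4, -29 in Cyp2a5, -39 in Cyp2a12 and -28 in Cyp2a22. It was present in 13.6% of the 32851 promoters of the same length in the RefSeq table. The core of the antioxidant response element bound by NRF2, TGACNNNGC, had 0 matches in all 4 windows and was present in 12.4% of all promoters. AGGTCA, an element bound by nuclear receptors such as CAR, matched once in Cyp2a4 and once in Cyp2a5, after the start and on the reverse strand, and not in the other 2 windows. It was present in 16.3% of all promoters. These are matches of letters in short windows and say nothing about binding elsewhere.

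Before the levels, 2 libraries need naming. Over the 20 livers, 4 short rRNA-type gene models (Gm23935, Gm24270, Gm42418 and Mir6236) took between 14.1% and 58.2% of a library, and vehicle replicates 6 and 7 stood apart at 58.2% and 50.7%. TPM (a gene's share of its library after division by length) of all other genes falls as that share grows, so results are also given after median-of-ratios scaling or without these 2 libraries. The number of reads per library is unknown. Levels of hepatocyte markers fitted the labelled tissue: 19 of them summed to between 66254 and 106304 TPM in S217879 livers and between 50236 and 109119 TPM in vehicle livers.

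Cyp2a5 and Cyp2a4 were far higher in S217879 livers than in vehicle livers, while Cyp2a12 lay close to its vehicle level. Cyp2a22 lay lower in S217879 livers, with overlap between the groups. Cyp2a5 had 5337 to 11434 TPM (median 9954) in S217879 livers, against 188 to 977 TPM (median 511) in vehicle livers. Its mean was 9436 ± 1729.9 TPM in S217879 livers and 585 ± 267 TPM in vehicle livers (SD, n = 10 each), and the groups did not overlap. By mean TPM it was the 12th most abundant of all genes in S217879 livers and the 137th in vehicle livers. The difference of its mean log2(TPM + 0.5) was 4.14, a 17.7-fold higher level. Vehicle replicates 6 and 7 had the lowest vehicle levels of Cyp2a5, 188 and 337 TPM, and without them the difference was 3.88, or 14.7-fold.

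Cyp2a4 had 495 to 1243 TPM (median 928) in S217879 livers, against 6.43 to 31.1 TPM (median 12.1) in vehicle livers. Its mean was 905 ± 281 TPM in S217879 livers and 15.3 ± 7.29 TPM in vehicle livers (SD, n = 10 each), and the lowest S217879 liver lay far above the highest vehicle liver. The log2 difference was 5.90, or 59.7-fold, which ranked 1st of the 13401 genes whose mean reached 1 TPM. The difference of Cyp2a5 ranked 6th. For comparison, 8 of these genes (0.0597%) were at least 16-fold higher in S217879 livers and 247 (1.84%) were higher with no overlap between the groups. Both genes were picked with this contrast known, so nothing is read from their place in it.

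Cyp2a12 had 218 to 304 TPM (median 281) in S217879 livers, against 128 to 328 TPM (median 256) in vehicle livers. The groups overlapped widely, at means of 272 ± 27.1 TPM in S217879 livers and 259 ± 61.3 TPM in vehicle livers (SD, n = 10 each). Its log2 difference was 0.11 as deposited and 0.26 after median-of-ratios scaling, but -0.04 after rescaling without the rRNA-type genes, -0.01 after quantile normalization and -0.05 without vehicle replicates 6 and 7. Its direction therefore depends on the scaling.

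Cyp2a22 was the least abundant member in S217879 livers, with 5.46 to 12.3 TPM (median 7.88), against 7.33 to 22.3 TPM (median 12.3) in vehicle livers. All 10 S217879 livers lay below the vehicle median, but the groups overlapped. The log2 difference was -0.49 as deposited, -0.34 after median-of-ratios scaling and -0.56 without vehicle replicates 6 and 7. In bulk tissue, fewer cells of a type and less RNA per cell cannot be told apart.

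**Figure D1:**
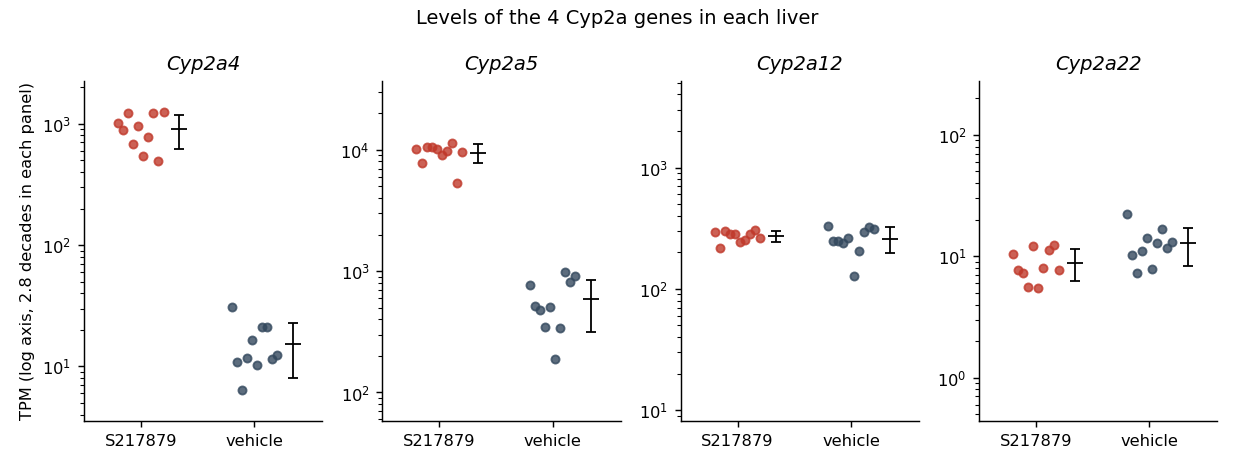
TPM of each gene in each liver, on log axes that span the same number of decades in all panels. Points are livers in replicate order, and bars beside them give the mean and SD of 10 livers. Cyp2a5 and Cyp2a4 in S217879 livers stand clear of vehicle livers, whereas Cyp2a12 and Cyp2a22 overlap.

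The order of the members differed between the groups. In S217879 livers the order by TPM was Cyp2a5, Cyp2a4, Cyp2a12 and Cyp2a22 in all 10 livers, and no 2 neighbours had overlapping ranges. In vehicle livers Cyp2a5 exceeded Cyp2a12 within all 10 livers, although their ranges over livers overlapped, and Cyp2a12 exceeded both of the other genes in all 10. Cyp2a4 and Cyp2a22 had overlapping ranges there: Cyp2a4 had the higher TPM in 7 of 10 vehicle livers and Cyp2a22 in 3. Their difference within livers was not tested.

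The spread between livers of Cyp2a5 relative to its mean was 18.3% in S217879 livers and 45.7% in vehicle livers (coefficient of variation of TPM). That of Cyp2a4 was 31.0% in S217879 livers and 47.7% in vehicle livers. Cyp2a12 had the smallest, at 9.98% in S217879 livers and 23.6% in vehicle livers. The vehicle values include the rRNA-type share of replicates 6 and 7, and the part of that share in the spread was not tested.

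Together the 4 genes summed to 10621 ± 1917 TPM in S217879 livers and 872 ± 328 TPM in vehicle livers (SD, n = 10 each). This was 1.06% of an S217879 library and 0.0872% of a vehicle library on average. Cyp2a5 made up 88.8 ± 1.99% of the sum in S217879 livers and 65.0 ± 6.42% in vehicle livers. Cyp2a4 made up 8.47 ± 1.88% in S217879 livers and 1.92 ± 0.951% in vehicle livers. Cyp2a12 made up only 2.67 ± 0.805% of the sum in S217879 livers, against 31.5 ± 5.54% in vehicle livers, at nearly the same TPM. Cyp2a22 made up 0.0881 ± 0.0430% in S217879 livers and 1.57 ± 0.511% in vehicle livers.

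**Figure D2:**
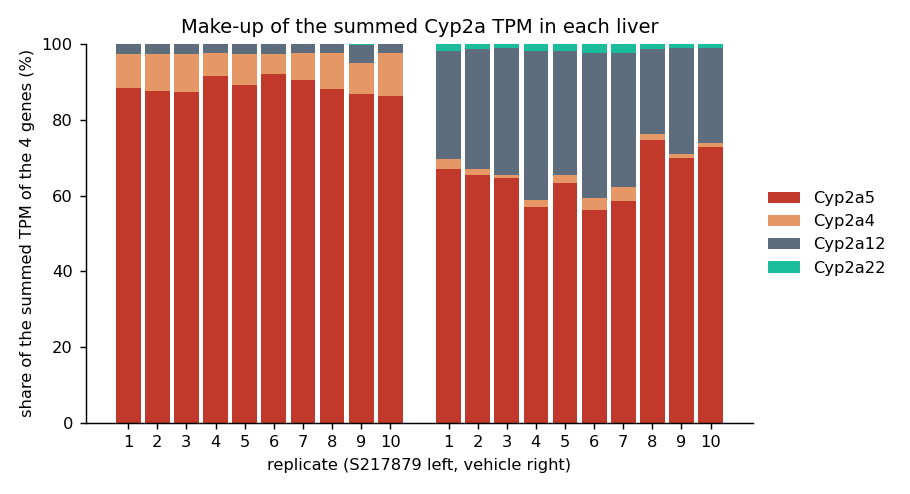
Share of each gene in the summed TPM of the 4 Cyp2a genes, in percent, 1 bar per liver with S217879 livers left and vehicle livers right. Cyp2a5 fills between 86.2% and 92.0% of the bar in S217879 livers and between 56.2% and 74.7% in vehicle livers, where Cyp2a12 takes most of the rest.

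Ratios within a liver do not depend on the library total. Cyp2a4 stood at 9.58 ± 2.30% of Cyp2a5 in S217879 livers and at 3.07 ± 1.73% in vehicle livers (SD, n = 10 each). The ratio ran between 5.92% and 13.1% in S217879 livers and between 1.34% and 6.23% in vehicle livers. In 9 of 10 S217879 livers it lay above every vehicle liver, and the exception was S217879 replicate 6 at 5.92%, below vehicle replicate 7 at 6.23%. The mean log2 ratio differed by 1.81, so that Cyp2a4 differed more between the groups than its near copy Cyp2a5 did.

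Cyp2a12 stood at 3.01 ± 0.949% of Cyp2a5 in S217879 livers and at 49.7 ± 13.4% in vehicle livers, with no overlap. In 9 S217879 livers the ratio lay within a narrow band of 2.47% to 2.92%, and replicate 9 stood apart at 5.69%. That liver also had the lowest TPM of Cyp2a5 (5337) and of Cyp2a4 (495) of its group, but the highest of Cyp2a12 (304). Cyp2a22 stood at 0.0997 ± 0.0501% of Cyp2a5 in S217879 livers and at 2.49 ± 1.01% in vehicle livers. Within the other pair, Cyp2a22 stood at 3.23 ± 0.810% of Cyp2a12 in S217879 livers and at 4.98 ± 1.28% in vehicle livers, and these ranges overlapped.

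**Figure D3:**
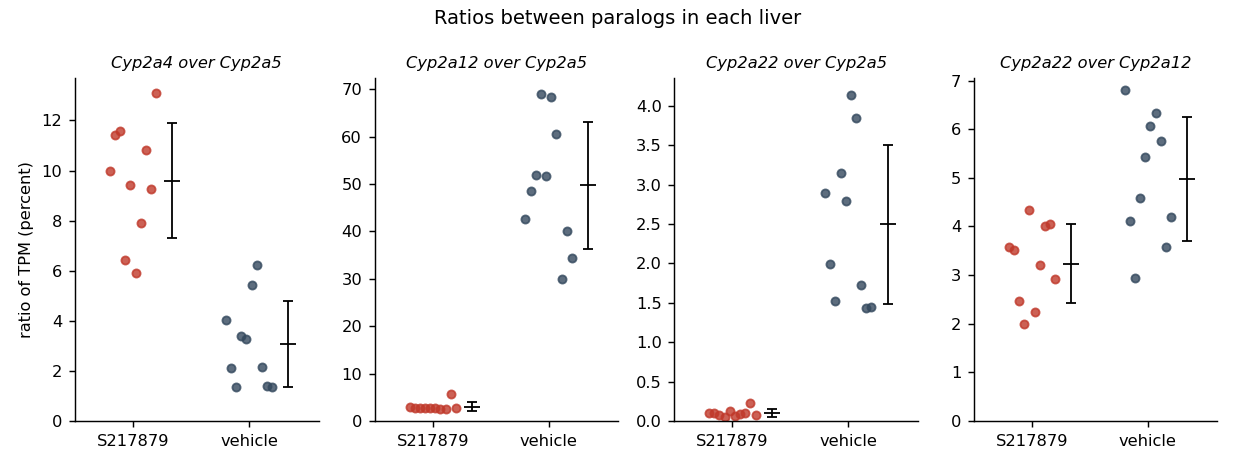
Ratio of 2 paralogs' TPM in each liver, in percent, with the mean and SD of 10 livers beside the points. The ratio of Cyp2a4 to Cyp2a5 overlaps by 1 S217879 liver, the ratios of Cyp2a12 and Cyp2a22 to Cyp2a5 do not overlap, and the ratio of Cyp2a22 to Cyp2a12 overlaps.

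The sources used here do not say how reads that match several genes were counted, so the split between close copies is uncertain. Of the 50-base windows of the Cyp2a4 transcript, 36.1% also occur in Cyp2a5, and at 100 bases 11.2% do. Cyp2a22 shares 25.7% of its 50-base windows with Cyp2a12. At 50, 75 and 100 bases neither Cyp2a4 nor Cyp2a5 shares any window (0%) with Cyp2a12 or Cyp2a22, so exact reads of those lengths do not cross between the pairs.

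Genes of the cluster other than the members were higher as well where they could be tested. Between Cyp2s1 and Cyp2t4, which lie 1356 kb apart on chromosome 7, the annotation holds 45 genes, of which 11 reached a mean of 1 TPM. Besides the 4 members these were 7 genes. Of them 3, Cyp2b10, Gm42375 and Cyp2a21-ps, averaged under 1 TPM in vehicle livers and reached the minimum only through their level in S217879 livers, so their call adds nothing to a count. The other 4, Cyp2f2, Cyp2b9, Cyp2b13 and Gm15883, averaged over 1 TPM in vehicle livers as well. All 4 passed the test in the higher direction (limma, adjusted p under 0.05), against 813 of 13401 genes (6.07%) over the whole table. Gm15883 lies within Cyp2f2 and its reads cannot be told apart from those of Cyp2f2, so it is not a separate count. These 4 are too few to say more than that each was higher. They passed again after median-of-ratios scaling, when 30.8% of all genes were called higher, without vehicle replicates 6 and 7 (5.52% of all genes) and after rescaling without the rRNA-type genes (7.54%).

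Cyp2f2, an enzyme known for activating naphthalene, rose to 1903 ± 175 TPM in S217879 livers, against 450 ± 196 TPM in vehicle livers (SD, n = 10 each). The groups did not overlap, and the log2 difference was 2.21 ± 0.21 (SE), or 4.64-fold, with an adjusted p of 1.26e-08. Cyp2b9, known to be higher in female mice, rose to 99.4 ± 51.5 TPM in S217879 livers, against 31.0 ± 16.6 TPM in vehicle livers, with overlap and an adjusted p of 0.0124. Cyp2b10, the textbook target of CAR, was low in both groups, at 2.28 ± 1.16 TPM in S217879 livers and 0.747 ± 0.511 TPM in vehicle livers. Cyp2b13 had 5.42 ± 2.44 TPM in S217879 livers and 2.43 ± 1.75 TPM in vehicle livers, with an adjusted p of 0.0366. It missed the threshold without any 1 of S217879 replicates 1, 3, 5, 6, 7, 8 and 10 and vehicle replicates 3, 4, 5, 8 and 9 (adjusted p up to 0.0695).

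The remaining 3 genes overlap a Cyp2 gene on the opposite strand. Gm42375 overlaps the first 118 bases of Cyp2a4 and had 5.63 ± 1.39 TPM in S217879 livers and 0.461 ± 0.242 TPM in vehicle livers. The pseudogene Cyp2a21-ps spans Cyp2a22 and had 5.58 ± 1.72 TPM in S217879 livers and 0.592 ± 0.245 TPM in vehicle livers. It shares 17.9% of the 50-base windows of Cyp2a5. Gm15883 lies within Cyp2f2 and had 19.2 ± 2.27 TPM in S217879 livers and 9.27 ± 2.47 TPM in vehicle livers (adjusted p = 9.75e-09). The sources used here do not say whether counting used strand, so reads of these genes and of their partners cannot be told apart.

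The nearest expressed genes outside the cluster were not higher. On one side, Ccdc97 and Hnrnpul1 did not pass the test (log2 differences of -0.18 and -0.14) and Axl, a receptor tyrosine kinase, fell by 0.55 on the log2 scale (adjusted p = 2.51e-04). On the other side, Egln2, Rab4b and Snrpa did not pass it (log2 differences of -0.039, -0.28 and -0.0022). Within the cluster, Cyp2a22 and Cyp2a12 lie between Cyp2a5 and Cyp2f2.

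**Figure D4:**
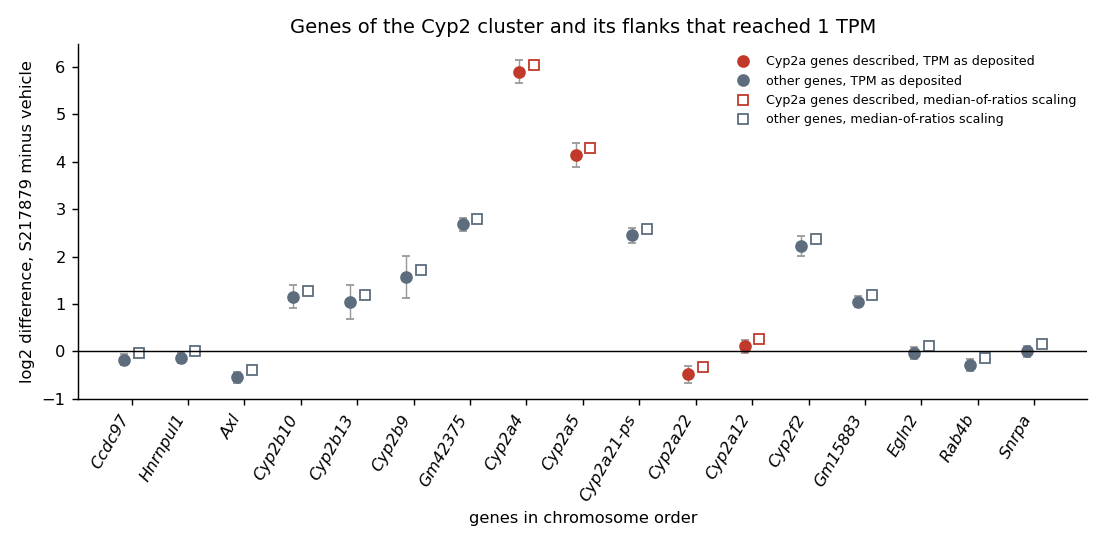
Log2 difference of S217879 minus vehicle livers for each gene of the cluster and its flanks that reached a mean of 1 TPM, in chromosome order. Circles with SE are TPM as deposited, and open squares follow median-of-ratios scaling. Cyp2a4 at 5.90 and Cyp2a5 at 4.14 stand highest, and Cyp2a22 at -0.49 lies below 0 between higher neighbours.

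Variation between livers of 1 group does not use the contrast by which the members were picked, and it was examined on median-of-ratios scaled log2 values. Over 20 relations (the 6 pairs of members, and Cyp2a4 and Cyp2a5 each with Nqo1 and with Nr1i3, in each group), 6 passed an adjusted p under 0.05 for Pearson's r and 2 for Spearman's rho (two-sided permutation tests, Benjamini-Hochberg adjusted). Nqo1 encodes the quinone reductase that is a standard readout of NRF2, and Nr1i3 encodes CAR.

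Among vehicle livers, Cyp2a4 varied with Cyp2a22 and not detectably with its near copy Cyp2a5. The relation of Cyp2a4 with Cyp2a22 had r = 0.97 (permutation p = 4.0e-05, adjusted 8.0e-04) and rho = 0.93 (p = 3.9e-04, adjusted 0.0039). Without the 2 livers farthest from the median of Cyp2a4, r was 0.95, and leaving out any 1 vehicle liver kept it between 0.95 and 0.98. Of all other genes that reached a mean of 1 TPM, Cyp2a22 had the highest r with Cyp2a4 in vehicle livers, and Cyp2a4 the highest with Cyp2a22. Cyp2a4 with Cyp2a5 had r = 0.11 (permutation p = 0.757, adjusted 0.797) and rho = -0.08 (p = 0.840, adjusted 0.933), and r = 0.16 without the 2 farthest livers. This pair of genes shares the most sequence, and Cyp2a4 and Cyp2a22 share no 50-base window (0%).

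Cyp2a5 of vehicle livers varied with Nr1i3 at r = 0.94 (permutation p = 2.0e-04, adjusted 0.0020) and rho = 0.95 (p = 2.1e-04, adjusted 0.0039), with r = 0.92 without the 2 livers farthest from its median. It varied with Cyp2a12 at r = 0.85 (permutation p = 0.0018, adjusted 0.0121) and rho = 0.73 (p = 0.0204, adjusted 0.0680), with r = 0.89 without the 2 farthest livers. That relation no longer passed without vehicle replicate 6 (r = 0.76, adjusted permutation p = 0.0835). Many other genes varied as closely with Cyp2a5 in vehicle livers. By r, Gch1 ranked 36th of all genes that reached the minimum (r = 0.942), above Nr1i3 (r = 0.938), and Cyp2a12 ranked 361st. Cyp2a5 with Nqo1 had r = 0.72 (permutation p = 0.0194, adjusted 0.0554) and rho = 0.76 (p = 0.0142, adjusted 0.0608), short of the threshold, with r = 0.70 without the 2 farthest livers. It passed on TPM as deposited (r = 0.87, adjusted permutation p = 0.0023) and without vehicle replicate 10 (r = 0.77, adjusted permutation p = 0.0452).

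Among S217879 livers, Cyp2a4 and Cyp2a5 varied together at r = 0.75 (permutation p = 0.0043, adjusted 0.0173) and rho = 0.76 (p = 0.0145, adjusted 0.0608). Without the 2 farthest livers, replicates 6 and 9, r was 0.56, and without replicate 9 alone the relation no longer passed (r = 0.61, adjusted permutation p = 0.172). By r with Cyp2a5 in S217879 livers, Cyp2a4 ranked 291st of all genes that reached the minimum. Gsta2 ranked 37th there (r = 0.911), above Nqo1 (r = 0.898). Cyp2a5 with Nqo1 had r = 0.90 (permutation p = 0.0035, adjusted 0.0173) and rho = 0.71 (p = 0.0267, adjusted 0.0763), which was r = 0.59 without the 2 farthest livers and r = 0.62 without replicate 9 (adjusted permutation p = 0.138). Cyp2a4 with Nqo1 had r = 0.72 (permutation p = 0.0121, adjusted 0.0405) and rho = 0.62 (p = 0.0593, adjusted 0.134), and without the 2 farthest livers r was 0.14. Without replicate 9 it had r = 0.49 (adjusted permutation p = 0.319), and it also missed the threshold without replicate 1, 2, 3 or 6 (adjusted permutation p between 0.0554 and 0.134). None of these 3 relations of S217879 livers passed without replicate 9, the liver with the lowest Cyp2a5, although r stayed positive. Cyp2a4 with Cyp2a22 had r = 0.38 (permutation p = 0.279, adjusted 0.399), rho = 0.20 (p = 0.582, adjusted 0.730) and r = 0.61 without the 2 farthest livers.

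The difference in r between the groups was tested for the 10 pairs by permuting group labels, and none passed after adjustment. The lowest p was 0.0161 (adjusted 0.161), for Cyp2a5 with Nr1i3, at r = 0.52 in S217879 livers and r = 0.94 in vehicle livers. For Cyp2a4 with Cyp2a22 the p was 0.133 (adjusted 0.353), and for Cyp2a4 with Cyp2a5 it was 0.113 (adjusted 0.353). The relations are therefore not shown to differ between the groups.

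**Figure D5:**
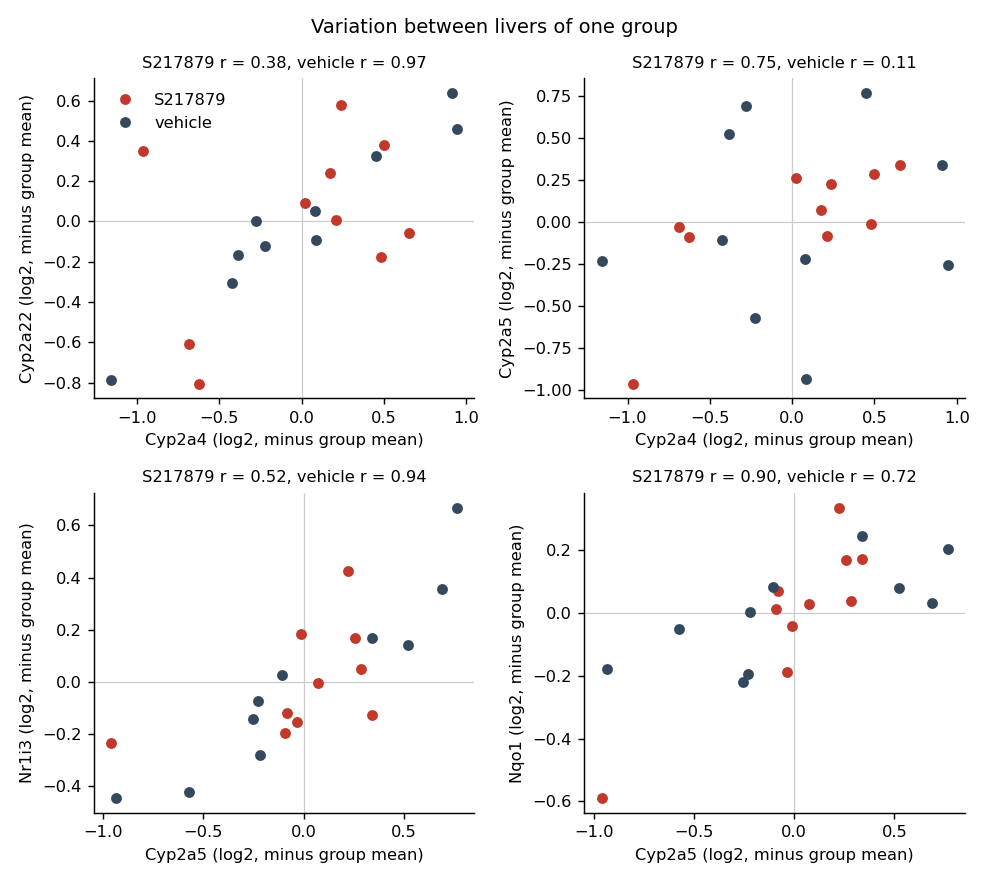
Log2 values after median-of-ratios scaling, minus the mean of the liver's own group, for 4 pairs of genes with 1 point per liver. Vehicle livers line up for Cyp2a4 with Cyp2a22 (r = 0.97) and for Cyp2a5 with Nr1i3 (r = 0.94), and the S217879 point at the far left of both lower panels is replicate 9.

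Genes whose level varied most like that of each member were sought over the 20 livers after each group's mean was removed, as a description with no test. For Cyp2a5 the 8 most alike were Gch1 (r = 0.94), Acsm5 (r = 0.92), Adora1 (r = 0.92), Etnppl (r = 0.92), Ces1g (r = 0.91), Wdr45 (r = 0.91), Gsta2 (r = 0.91) and Cat (r = 0.91). Gch1 encodes the first enzyme of tetrahydrobiopterin synthesis, Cat encodes catalase, and Gsta2 encodes a glutathione transferase known as an NRF2 target. All of these except Wdr45 also passed the test in the higher direction, and Wdr45 did so only after median-of-ratios scaling or quantile normalization. Cat had the highest r with Cyp2a5 of all genes within S217879 livers (r = 0.97), and ranked 225th within vehicle livers (r = 0.88). The likeness of these genes was not computed without S217879 replicate 9, the liver with the lowest Cyp2a5 of its group. Cat rose to 3609 ± 318 TPM in S217879 livers, against 1401 ± 345 TPM in vehicle livers.

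The likeness of other genes to Cyp2a4 was weaker. Its 4 most alike were Cdk5rap2 (r = 0.72), Abcc2 (r = 0.71), Dido1 (r = 0.69) and Slc15a4 (r = 0.69), of which Abcc2 encodes the efflux pump MRP2. On TPM as deposited their r with Cyp2a4 was only 0.41, 0.49, 0.23 and 0.36, so this likeness depends on the scaling. For Cyp2a12 they were Rufy3 (r = 0.91), Hal (r = 0.90), Cyp4v3 (r = 0.89) and Cyp2d10 (r = 0.85), of which Hal encodes histidase and the last 2 are P450 enzymes. For Cyp2a22 they were Tns2 (r = 0.78), Klhl26 (r = 0.78), Flcn (r = 0.76) and Cyp3a59 (r = 0.75). For Cyp2a4 and for Cyp2a22, 1 predicted gene model had a higher r and was passed over. All r were picked as the highest among 13401 genes over the same 20 libraries, whose scaling all genes share.

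Of 29 genes encoding reported regulators of Cyp2a genes that reached the minimum, 1 rose and 7 fell, against 6.07% of all genes called higher and 3151 of 13401 (23.5%) called lower. The median log2 difference of the list was -0.20, beside -0.12 over all genes tested. Nr1i3 was the one that rose, to 78.2 ± 11.1 TPM in S217879 livers, against 50.5 ± 17.6 TPM in vehicle livers (log2 difference 0.70 ± 0.16 SE, adjusted p = 9.97e-04). Nfe2l2, the gene of NRF2 itself, fell to 28.5 ± 4.91 TPM in S217879 livers, against 53.4 ± 9.53 TPM in vehicle livers (log2 difference -0.89, adjusted p = 3.08e-07). Ppargc1a, which encodes the coactivator PGC-1α, fell to 2.30 ± 0.540 TPM in S217879 livers, against 3.53 ± 0.679 TPM in vehicle livers (log2 difference -0.53, adjusted p = 3.29e-04). The nuclear receptor genes Hnf4a, Nr1i2 (PXR) and Ppara, the aryl hydrocarbon receptor Ahr and the NRF2 repressor Keap1 did not pass, at log2 differences of 0.09, -0.20, -0.26, -0.11 and 0.13. After median-of-ratios scaling, which moved the median of all genes to 0.02, 3 rose and 6 fell (22.7% of all genes did), whereas 20 fell without vehicle replicates 6 and 7 (54.5% of all genes did) and 23 fell after rescaling without the rRNA-type genes (64.0% of all genes did).

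P450 enzymes draw electrons from a reductase and from cytochrome b5. Of 9 genes of these partners 2 rose and 0 fell, with a median log2 difference of 0.08, where 6.07% of all genes rose and 23.5% fell. Pgrmc1, a heme-binding membrane partner of P450 enzymes, rose to 2832 ± 303 TPM in S217879 livers, against 1164 ± 289 TPM in vehicle livers (log2 difference 1.32 ± 0.15 SE, adjusted p = 2.43e-09). Cyb5a, cytochrome b5, rose 1.36-fold to 741 ± 82.1 TPM in S217879 livers, against 561 ± 143 TPM in vehicle livers (adjusted p = 0.0169). The reductase Por had 343 TPM in S217879 livers and 303 TPM in vehicle livers and did not pass (adjusted p = 0.425). After median-of-ratios scaling 6 of the 9 rose, but so did 30.8% of all genes.

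Cyp2a5 also oxidises bilirubin in the mouse. Of 22 genes of heme synthesis, heme breakdown and bilirubin handling 7 rose and 3 fell, with a median log2 difference of 0.01. By share, 31.8% of the list rose and 13.6% fell, where 6.07% of all genes rose and 23.5% fell. After median-of-ratios scaling 10 of the 22 rose, but so did 30.8% of all genes. The glutathione transferases Gsta1 and Gsta2 rose 17.1-fold and 12.2-fold, and the uptake carriers Slco1a1 and Slco1a4 fell, to 1.53 and 4.12 TPM in S217879 livers, against 9.64 and 15.7 TPM in vehicle livers. Of the enzymes of heme itself, named after their values were seen, Blvrb, a biliverdin reductase, rose 3.74-fold (adjusted p = 5.73e-14) and Fech, which inserts iron into heme, rose 1.52-fold (adjusted p = 5.56e-04).

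Of 23 NRF2 core targets 19 rose (82.6%, against 6.07% of all genes) and 0 fell (against 23.5%), with a median log2 difference of 1.61. The rise of these targets in these livers was already known. One of them, Gpx2, reached the minimum only through S217879 livers, and so did Cyp2b10 and Cyp1a1 in the next 2 lists. Their calls add nothing to what the lists show, although the counts, shares and medians given here include them. Cbr3, a carbonyl reductase, had a log2 difference of 5.87 and Gpx2, a glutathione peroxidase, 5.14, next to the 5.90 of Cyp2a4. Nqo1 rose to 102 ± 13.9 TPM in S217879 livers, against 14.6 ± 3.52 TPM in vehicle livers (6.92-fold, adjusted p = 1.06e-20). Of 15 other targets of CAR and PXR 8 rose (53.3%, against 6.07% of all genes) and 2 fell (13.3%, against 23.5%), with a median of 0.48. The carboxylesterase Ces2c rose 4.96-fold, whereas Cyp3a11, the main drug-oxidising Cyp3a enzyme, fell to 519 ± 137 TPM in S217879 livers, against 1176 ± 402 TPM in vehicle livers (adjusted p = 2.82e-05). Of 5 AHR targets 3 rose and 1 fell (median 1.80, the value of Cyp1a1), too few to set against the shares of all genes. Those that rose were Cyp1a1, Cyp1a2 and Nqo1, the last given above as a readout of NRF2. Cyp1a2, which oxidises caffeine and is found near the central vein, rose 9.86-fold, to 1411 ± 384 TPM in S217879 livers, against 149 ± 57.9 TPM in vehicle livers (adjusted p = 2.28e-09). Cyp1b1 fell by 0.53 on the log2 scale.

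Of 23 Cyp2 genes outside the chromosome 7 cluster 11 rose (47.8%, against 6.07% of all genes) and 2 fell (8.70%, against 23.5%), with a median log2 difference of 0.33. Cyp2c37 rose 2.75-fold, to 275 ± 112 TPM in S217879 livers, against 109 ± 53.4 TPM in vehicle livers (adjusted p = 0.00318). Cyp2c38 fell to 33.0 ± 7.82 TPM in S217879 livers, against 49.1 ± 11.3 TPM in vehicle livers (adjusted p = 0.00118).

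Cyp2a4 is known as a gene higher in female mouse liver. Of 7 other female-biased genes 2 rose and 3 fell (median -0.21), too few to set against the 6.07% and 23.5% of all genes. The 2 that rose, Cyp2b9 and Cyp2b13, belong to the chromosome 7 cluster. Cyp17a1, a steroid hydroxylase, fell to 2.62 ± 1.31 TPM in S217879 livers, against 17.9 ± 7.71 TPM in vehicle livers (adjusted p = 3.83e-06), and Acot3 fell by 1.16 on the log2 scale. Of 17 male-biased genes 3 rose (17.6%) and 5 fell (29.4%, near the 23.5% of all genes), with a median of -0.30. Gstp1, also an NRF2 target, rose 3.73-fold and Cyp2d9 2.16-fold, while Serpina1e and Slco1a1 fell by 2.18 and 1.96.

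Cyp2a5 is a gene of pericentral hepatocytes, and 15 markers of that zone were counted. Of these 3 rose and 6 fell, where 6.07% of all genes rose and 23.5% fell, with a median of -0.21. After median-of-ratios scaling 5 rose and 6 fell, against 30.8% and 22.7% of all genes. Cyp1a2 and Aldh1a1 rose, the second 1.74-fold, and Oat and Gulo fell by 1.00 and 0.80 on the log2 scale. Of 19 hepatocyte markers 4 rose (21.1%) and 4 fell (21.1%, near the 23.5% of all genes), and their median of -0.13 was close to the -0.12 of all genes. Ttr and Asgr2 rose by 0.50 and 0.48, and Apoa1 and Ahsg fell by 0.69 and 0.54.

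Markers of other liver cells were counted beside the 6.07% of all genes that rose and the 23.5% that fell. Of 12 stellate cell markers 12 fell (0 rose, median -0.57), and their summed level ran from 221 to 416 TPM in S217879 livers and from 309 to 581 TPM in vehicle livers. After median-of-ratios scaling 10 of the 12 fell, when 22.7% of all genes did. With 1 library left out 8 to 12 fell, with 8 without S217879 replicate 7. Of 14 macrophage markers 9 fell and 0 rose (median -0.60), with sums of 765 to 1435 TPM in S217879 livers and 1000.3 to 1973 TPM in vehicle livers. Of 8 cholangiocyte markers 5 fell and 0 rose (median -0.55), with sums of 237 to 463 TPM in S217879 livers and 420.0 to 857 TPM in vehicle livers. Col1a1, Gpnmb and Anxa2 led these lists, at log2 differences of -1.31, -1.40 and -1.24. Of 10 endothelial markers 4 rose and 0 fell (median 0.15), led by Lyve1 at 0.86. Of 8 genes of olfactory and respiratory mucosa, where Cyp2a5 is also expressed, 0 reached a mean of 1 TPM, and their sum was at most 2.76 TPM in S217879 livers and 1.59 TPM in vehicle livers. The part of these markers in the levels of the Cyp2a genes was not tested.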

How the data were processed

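Total RNA was extracted with a kit for lipid-rich tissue and made into stranded libraries by polyA capture, per the labels' protocols. The submitters' processing notes list Trimmomatic 0.36, STAR 2.5.2b, featureCounts, Subread 1.5.2 and the build GRCm38; roles, annotation, strand use and the handling of multi-matching reads are not given there. TPM in the deposited table were made by the authors, and each library sums to 1000000, so depth is unknown and precision is the spread between animals.

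The 13401 genes with mean TPM of 1 or more were tested as log2(TPM + 0.5) with limma 3.58.1 in R 4.3.3 (lmFit; eBayes, trend and robust), group being the only term, at a Benjamini-Hochberg adjusted p under 0.05. This scale understates fold changes of low genes. The steps were also tested on simulated data. Within-group relations used median-of-ratios scaling and 100000 permutations. Sequences are from RefSeq (GRCm38.p6) and GENCODE M21, and all 4 members matched.

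The members and the 17 gene lists were chosen with earlier results of these data known. Genes were named by rule: per list up to 2 with the largest called rise and 2 with the largest called fall (lists with no call gave their 2 most abundant), then the 8 genes most like Cyp2a5 and the 4 most like each other member, predicted models passed over. Not all of these are described. Genes of the cluster and its flanks, and regulators and partners that did not pass, are named besides. Nothing says that the animals were raised apart, so p-values measure the spread between these samples.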

Additional observations from a re-analysis of the deposited data

Results flagged for a closer look

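Within each group of 10 livers, the gap between the highest or lowest liver and its neighbour was compared with the whole range of the group, for 162 groups of values. Chance flags about 1 in 20 groups, and 10 livers' values were flagged, 7 of them from S217879 replicate 9. In that liver Cyp2a12 stood at 5.69% of Cyp2a5, against 2.47% to 2.92% in the other 9 livers. Cyp2a22 stood at 0.230% of Cyp2a5, against 0.0537% to 0.120% in the other 9. Ces2c was lower there, at 102 TPM against 162 to 218 TPM. Cyp2c38 was higher, at 51.6 TPM against 25.5 to 38.2 TPM, and so was Cyp17a1, at 5.80 TPM against 1.40 to 3.53 TPM. Apoa1 stood at 10234 TPM against 3719 to 6786 TPM, and Ahsg at 5752 TPM against 2763 to 4256 TPM.

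The other flagged values came from 3 other livers. Anxa2 was high in S217879 replicate 4, at 45.2 TPM against 19.4 to 32.4 TPM. Wdr45 was low in S217879 replicate 2, at 15.0 TPM against 18.0 to 21.3 TPM. Gm42375 was high in vehicle replicate 1, at 1.04 TPM against 0.130 to 0.603 TPM, and that liver also had the highest vehicle levels of Cyp2a4 (31.1 TPM) and Cyp2a22 (22.3 TPM).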

How the results depend on the processing

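The log2 differences of the 4 members and of their 4 ratios moved by less than 1 SD between livers under every alternative run, between 5.77 and 6.05 for Cyp2a4 and between 3.88 and 4.30 for Cyp2a5. Counts over all genes depended on the scaling. Of all genes, 4123 were called higher after median-of-ratios scaling, 3536 after quantile normalization and 3600 after median-of-ratios scaling without vehicle replicates 6 and 7. Genes called lower numbered 8576 after rescaling without rRNA-type genes, 7303 without vehicle replicates 6 and 7, 1642 at a minimum mean of 5 TPM, and 2656 to 5195 with 1 library left out (5195 without vehicle replicate 6). Of the lists, regulators called lower numbered 23 after rescaling without rRNA-type genes, 14 after quantile normalization, 20 without vehicle replicates 6 and 7, and 6 to 15 with 1 library left out (15 without vehicle replicate 6). Cluster neighbours called higher numbered 2 at a minimum of 5 TPM. Electron partners called higher numbered 6 after median-of-ratios scaling and 4 without vehicle replicates 6 and 7 as well. Endothelial markers called higher numbered 8 under both of these, and hepatocyte markers called higher 7 after median-of-ratios scaling. Hepatocyte markers called lower numbered 13 after rescaling without rRNA-type genes, 12 after quantile normalization and 11 without vehicle replicates 6 and 7. Female-biased genes called lower numbered 5 at a minimum of 0.1 TPM and with none. After median-of-ratios scaling, pericentral markers called higher numbered 5, regulators called higher 3, CAR and PXR targets called higher 12 and AHR targets called lower 2.

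With 1 library left out, hepatocyte markers called higher ran from 2 (without S217879 replicate 5) to 4. Hepatocyte markers called lower ran from 2 to 8: 8 without vehicle replicate 6, 7 without vehicle replicate 7 or S217879 replicate 9, and 2 without any 1 of S217879 replicates 2, 3, 7 and 8 and vehicle replicates 1, 2, 3, 5, 8, 9 and 10. Male-biased genes called lower ran from 3 to 7, with 3 without S217879 replicate 7 or 8 or vehicle replicate 3 or 9. Cholangiocyte markers called lower ran from 3 to 6, with 3 without any 1 of S217879 replicates 3, 5, 6, 7 and 10 and vehicle replicates 3, 5, 8, 9 and 10.

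Of the relations, 3 passed after rescaling without rRNA-type genes and 4 to 7 with 1 library left out. The sign of r turned for Cyp2a5 with Cyp2a22 in S217879 livers on TPM as deposited (-0.24), after rescaling without rRNA-type genes (-0.11) and with 1 library left out (-0.10 to 0.65). It turned with 1 library left out for Cyp2a4 with Cyp2a5 (-0.0072 to 0.23) and Cyp2a4 with Nr1i3 (-0.042 to 0.25) in vehicle livers. Cyp2a4 with Cyp2a5 in S217879 livers did not pass on TPM as deposited (r = 0.64, adjusted permutation p = 0.101), and Cyp2a4 with Nqo1 in vehicle livers passed without vehicle replicates 6 and 7 (r = 0.87, adjusted permutation p = 0.0331). Cyp2a5 with Nqo1 in vehicle livers passed on TPM as deposited (r = 0.87, adjusted permutation p = 0.0023) and without vehicle replicate 10 (r = 0.77, 0.0452). In S217879 livers, Cyp2a5 with Cyp2a12 passed without replicate 9 (r = 0.90, adjusted permutation p = 0.0090), and Cyp2a12 with Cyp2a22 without replicate 3 (r = 0.88, 0.0085). After rescaling without rRNA-type genes, Cyp2a4 and Cyp2a5 with Nqo1 in S217879 livers (r = 0.65 and 0.86) and Cyp2a5 with Cyp2a12 in vehicle livers (r = 0.72) did not pass. The cause was not tested. Leaving out vehicle replicates 6 and 7 was planned for levels and lists, and was chosen for the relations, as was its combination with median-of-ratios scaling and the test of differences in r, after the data were seen. No paired analysis was possible because the labels give each animal its own number and none is shared between the groups.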
